A study of Homo sapiens with 43 samples.

Results

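Chromatin remodellers are multi-subunit machines whose motor subunit, an ATPase of the SNF2 superfamily, slides, spaces, evicts or exchanges nucleosomes. The BAF (SWI/SNF) complexes, driven by SMARCA4 or SMARCA2, are the family that opens regulatory elements. The CHD, ISWI and INO80 families use related motors for other work: CHD4 and CHD3 drive the deacetylase-containing NuRD complex, SMARCA5 spaces nucleosomes in ISWI complexes whose BAZ, BPTF and RSF1 partners set the target, and INO80, EP400 and SRCAP handle the histone variant H2A.Z. Described here are 34 genes of these families and of further SNF2-related ATPases, chosen by name with earlier results of these data known. They are the 2 CHD subfamily I ATPases, 7 NuRD members, the 4 CHD subfamily III ATPases and CHD1L. The set also holds the 2 ISWI ATPases, 7 ISWI partners, 3 INO80 family ATPases and 8 further SNF2-related ATPases outside the 3 families. Each of the 34 matched 1 of the 58780 Ensembl gene rows of the deposited tables. The question was whether these genes change in RNA when the BAF ATPases are blocked.

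Polyadenylated RNA was sequenced in 43 libraries of 22 groups. Of these, 39 came from GM12878, a B lymphoblastoid line that carries Epstein-Barr virus, and 4 from HepG2, a line of liver cancer cells. BRM014, a small molecule that inhibits the ATPases SMARCA4 and SMARCA2, was used at 10 µM. In the pretreatment experiment (24 libraries, 12 groups of 2), GM12878 cells received DMSO or BRM014 for 30 min, and then vehicle, interferon gamma (IFNg, 100 ng/mL) or the glucocorticoid dexamethasone (Dex, 500 nM) for 1 h or 6 h. The stimulus panel (15 libraries, 8 groups) held GM12878 cells given DMSO, PBS, doxorubicin (Dox, 500 nM), IFNg, Dex, IL2 (the interleukin, 50 U/mL), LPS (bacterial lipopolysaccharide, 10 ng/mL) or TNF (25 ng/mL) for 6 h, with 2 libraries each except 1 for Dox. HepG2 cells had DMSO or BRM014 for 24 h, with 2 libraries each. Replicates are numbered in the labels, which do not say whether they were separate cultures, so p-values measure the spread between libraries, which may be technical. In bulk RNA, fewer cells of a kind and less RNA per cell cannot be told apart.

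Library totals ran from 12.9 to 22.9 M counts in GM12878 and from 3.06 to 19.9 M in HepG2, where the smallest was BRM014 replicate 2. The line labels were checked on marker genes: the summed level of 8 B cell markers was 13200 to 16800 CPM (counts scaled to the library total by TMM) in GM12878 and 56.0 to 187 in HepG2, and that of 8 hepatocyte markers 0.928 to 2.65 and 15700 to 35200. Replicates differed more in some groups than in others. The chi-square per degree of freedom between the 2 libraries of a group was 7.35 in HepG2 DMSO and 7.28 in DMSO plus vehicle at 6 h. It was 6.68 in panel PBS and 5.94 in DMSO plus IFNg at 6 h, and 2.52 to 5 in the other groups of 2. Along the BRM014 response, the replicates of 1 group stood apart. The log2 difference between the replicates of each pretreatment group was regressed on the 6 h BRM014 response of the other arms, over 670 to 805 genes outside the set that responded in both of them. For DMSO plus IFNg at 6 h the slope was 0.141, so replicate 1 lay nearer the BRM014 libraries than replicate 2. The slope compares the 2 replicates with each other, so it cannot say which of them was shifted. Below, replicate 1 is called the library that stood apart as a name only, since replicate 2 may be the shifted one. In the other groups the slope ran from -0.0317 to 0.0376. Values without replicate 1 of DMSO plus IFNg at 6 h are given where they change a call or a count, and for the members that changed most. Without it, the members called over the arms at 6 h kept their calls except CHD1L (adjusted p = 0.0781).

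Before any treatment effect, the levels of the genes differed widely. Levels between genes are in TPM, a transcript abundance corrected for gene length and library total. Over the 4 DMSO and PBS libraries of the panel, CHD4, the NuRD ATPase, was highest at 149.0 TPM ± 5.38 (SD, n = 4), and its range overlapped that of MBD2, the methyl-CpG reader of NuRD, at 144.9 ± 15.0. The NuRD scaffold MTA2 followed at 124.4 ± 5.29, then MTA1 at 93.2 ± 7.38 and CHD3 at 78.7 ± 3.80. These 5 NuRD genes held the highest places. Of 34 genes, 32 had at least 1 TPM, and 25 lay above 15.1 TPM, the median of the 13084 genes at or above 1 TPM. Motors of the further families were lower: SMARCA5 had 28.7 TPM ± 2.21, SRCAP 28.9 ± 1.6, EP400 20.7 ± 0.536 and INO80 13.1 ± 1.89. ERCC6, the transcription-coupled repair translocase CSB, was at 7.64 ± 0.846 and the ubiquitin ligase SHPRH at 4.59 ± 0.426, the lowest of the 32. SMARCA1, the second ISWI ATPase, was at 0.0825 TPM ± 0.0275, and the ISWI partner CECR2 at 0.015 ± 0.0129. Both failed the filter on low counts in GM12878, which left 32 genes for testing there.

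**Figure D1:**
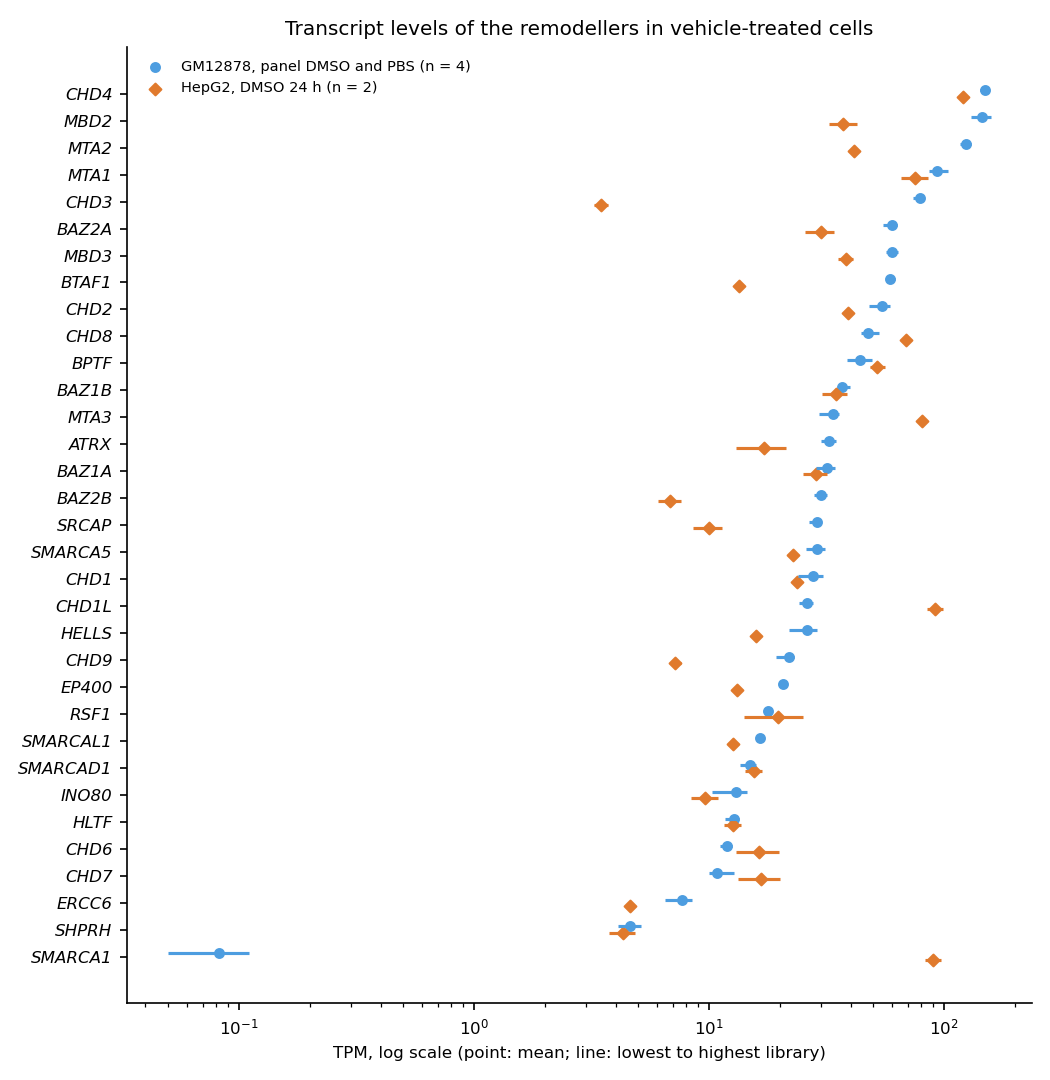
Level of 33 remodeller genes (CECR2, near 0 in both lines, is left out) in TPM on a log axis, with the mean as a point and the lowest to highest library as a line, for 4 GM12878 panel vehicle libraries (blue) and 2 HepG2 DMSO libraries (orange). NuRD genes lead in GM12878, and SMARCA1 lies at 0.0825 TPM in GM12878 and 89.9 TPM in HepG2.

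Levels in HepG2 had another order. CHD4 led there too, at 121 TPM ± 2.04 (SD, n = 2), but SMARCA1 was at 89.9 ± 10.2, next to CHD1L, the PARP-dependent remodeller ALC1, at 91.7 ± 9.69. CHD3 was at 3.48 ± 0.346. Against the 2 DMSO libraries of the GM12878 panel, edgeR's quasi-likelihood test called 6 of 33 members higher and 20 lower in HepG2 (adjusted p under 0.05), where 39.6% of all genes were called higher and 43% lower. The log2 difference was -4.59 (SE 0.0898) for CHD3, -2.36 for MBD2 and -2.21 for BTAF1, the ATPase that removes TBP from DNA. Higher in HepG2 were CHD1L by 1.70, MTA3 by 0.60, CHD7 by 0.36, RSF1 by 0.35 and CHD8 by 0.16, besides SMARCA1, which had 0 to 8 counts per library in GM12878. Cell line, exposure time and experiment cannot be told apart here.

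At 1 h after the stimulus, no member passed the test for BRM014 over the arms. CHD4 CPM at 1 h with vehicle was 465.9 and 466.0 in DMSO and 437.5 and 431.6 in BRM014, without overlap but not past the test, and SMARCAL1 was 37.3 and 37.2 against 36.5 and 35.2. Over the mean of the vehicle, IFNg and Dex arms, edgeR called 0 of 32 members higher and 0 lower, while it called 2.56% of all genes higher and 4.43% lower. DESeq2 also called 0, and 4 members had an unadjusted p under 0.05 (EP400, ERCC6, MTA3 and SMARCA5), beside 16.8% of all genes. The log2 fold changes lay between -0.14 and 0.08. In the vehicle arm alone 1 member was called, ERCC6, lower by 0.35 on the log2 scale (SE 0.0866, adjusted p = 0.0231), where 0.599% of genes were called higher and 1.46% lower. That call was lost without any 1 of the 4 libraries and with DESeq2.

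By 6 h members had moved in both directions. Over the mean of the 3 arms, edgeR called 12 of 32 members higher and 7 lower after BRM014. The background was 27.8% of 15183 genes higher and 28.7% lower, so the number called was near what all genes showed. The median log2 fold change of the members was 0.0345 and that of all genes 0.00671. The median size of the change was 0.155 log2 for members and 0.236 for all genes, a gap also seen at 1 h (0.0352 and 0.0684), and the difference was not tested. Of the members 3 passed 1.5-fold, where 17.3% of all genes did. These were CHD4 and BAZ1A, which fell, and SMARCAL1, which rose. The effect at 6 h minus that at 1 h passed the test for 9 members upward and 6 downward (17.2% and 21% of all genes). The upward count was 5 without DMSO plus Dex 1 h replicate 2.

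**Figure D2:**
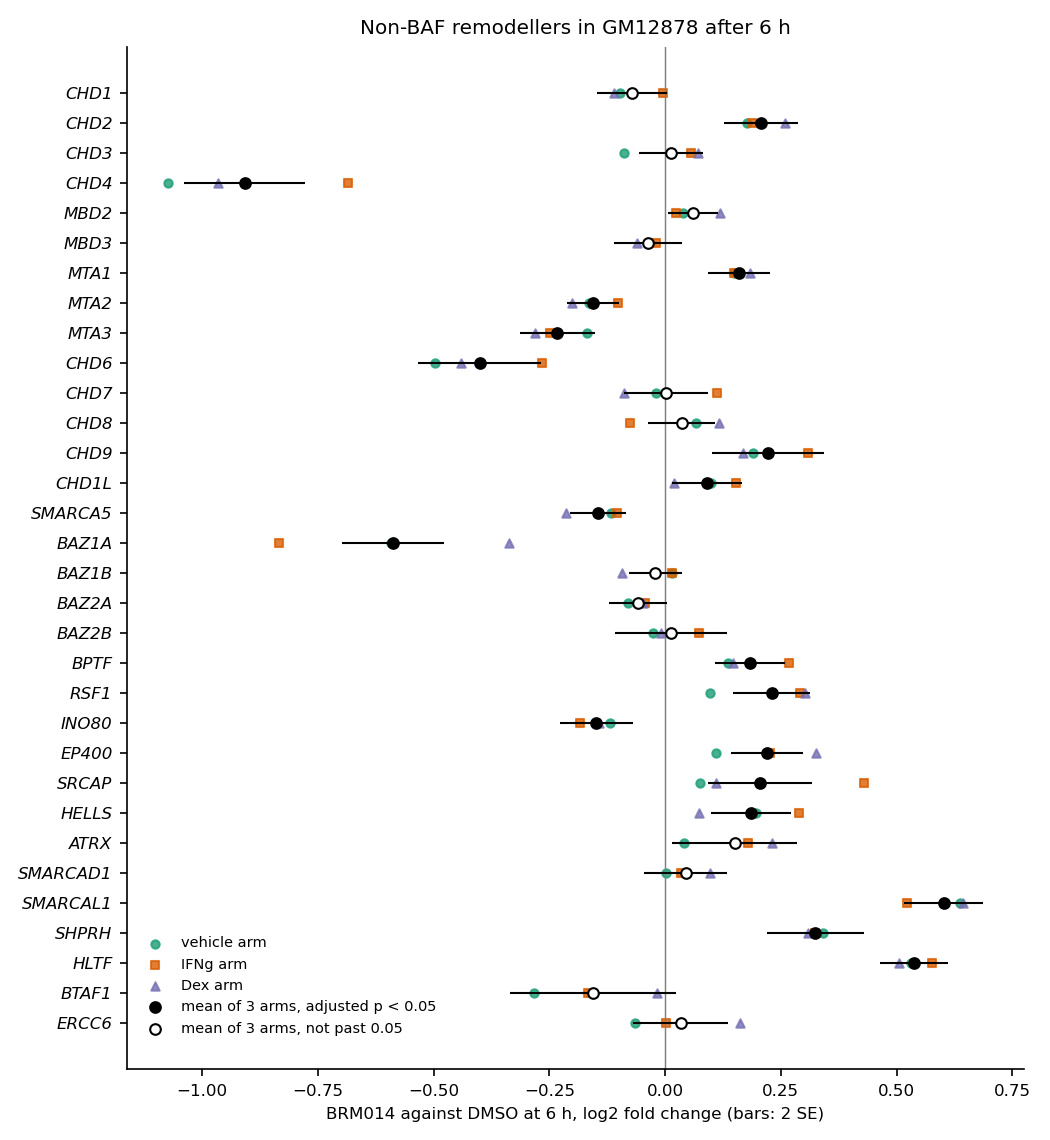
log2 fold change of BRM014 against DMSO at 6 h for the 32 tested members, for each arm (coloured symbols) and for the mean of 3 arms (black, with bars of 2 SE, filled where the adjusted p is under 0.05). CHD4 and BAZ1A lie farthest left, at -0.91 and -0.59, and HLTF and SMARCAL1 farthest right, at 0.54 and 0.60.

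Among the NuRD members, CHD4 carried the largest fall of the set. In the vehicle arm at 6 h, CHD4 had 480.4 and 476.3 CPM with DMSO and 212.8 and 241.5 with BRM014. In the Dex arm it had 373.3 and 387.7 against 192.3 and 197.4, and in the IFNg arm 295.1 and 423.5 against 215.9 and 232.0. All 6 BRM014 libraries lay below all 6 DMSO libraries. The log2 fold change over the arms was -0.91 (SE 0.0654, adjusted p = 2.19e-08), so that the level fell by 46.7%. Per arm, CHD4 fell by 1.07 (vehicle), 0.69 (IFNg) and 0.96 (Dex) on the log2 scale. The low DMSO value of 295.1 CPM is the library that stood apart. Without it, CHD4 fell by 0.99 over the arms and by 0.92 in the IFNg arm, and without replicate 2 in its place the IFNg arm value was -0.40. Part of the CHD4 exons, 46.9% of their bases, is shared with a second annotated gene on the same strand, which held at most 4.82% of the summed counts in GM12878, and summing both gave -0.91.

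Changes of the other NuRD members were smaller than that of CHD4. MTA2 fell by 0.16 (SE 0.0284) and MTA3 by 0.23 (SE 0.0402), while MTA1 rose by 0.16 (SE 0.0336). MTA1, MTA2 and MTA3 are paralogous scaffolds that hold the deacetylases. All 6 BRM014 values lay below the DMSO values for MTA2 (209.8 to 229.5 against 231.8 to 257.3 CPM). CHD3, the paralogous motor, had a log2 fold change of 0.01 with an interval of 2 SE from -0.06 to 0.08, and MBD3 and MBD2 of -0.04 and 0.06. Among the 8 further NuRD subunits, GATAD2A (-0.32), GATAD2B (-0.25) and RBBP7 (-0.07) fell and HDAC2 (0.14) rose.

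Within the other CHD ATPases, CHD6 and CHD9 moved in opposite directions. CHD6 fell by 0.40 (SE 0.0667, adjusted p = 6.86e-05): with vehicle it had 83.2 and 91.2 CPM in DMSO and 56.5 and 67.0 in BRM014. It did not pass in the IFNg arm, where its DMSO libraries had 66.6 and 84.0 CPM, the first of them the library that stood apart, and it fell by 0.45 over the arms without that library. CHD9 rose by 0.22 (SE 0.0602, adjusted p = 0.00458). CHD2, which binds at active genes, rose by 0.21 (SE 0.0396) and in each of the 3 arms. In the IFNg arm, CHD2 was at 0.18 without DMSO replicate 1 (adjusted p = 0.132) and at 0.19 without replicate 2 (adjusted p = 0.121). CHD1L rose by 0.09 (adjusted p = 0.0440), a call lost in 12 of its other settings. CHD1 (-0.07), CHD7 (0.00138) and CHD8 (0.04) did not pass.

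In the ISWI family the largest change was in BAZ1A, the ACF1 partner that pairs with SMARCA5 in the ACF and CHRAC complexes. BAZ1A had 115.0 and 112.5 CPM in DMSO plus vehicle at 6 h and 75.7 and 75.1 in BRM014 plus vehicle. It fell by 0.59 over the arms (SE 0.0552, adjusted p = 2.22e-08), and by 0.59, 0.83 and 0.34 in the vehicle, IFNg and Dex arms. Within each arm both BRM014 libraries lay below both DMSO libraries, and without DMSO plus IFNg replicate 1 the IFNg arm value was -1.04. SMARCA5, the motor itself, fell by 0.14 (SE 0.0303), with BRM014 libraries at 180.6 to 190.3 CPM against 192.4 to 219.6 in DMSO. RSF1, partner of SMARCA5 in the RSF complex, rose by 0.23 (SE 0.0412), and BPTF, the NURF subunit, by 0.18 (SE 0.0379). BAZ1B (-0.02), BAZ2A (-0.06) and BAZ2B (0.01) did not pass. Of 3 small ISWI-associated subunits, HMGXB4 (0.78) and the histone-fold protein CHRAC1 (0.25) rose.

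INO80 fell by 0.15 (SE 0.0393), with all 6 BRM014 libraries (49.1 to 51.7 CPM) below all 6 DMSO libraries (52.4 to 59.9). EP400 rose by 0.22 (SE 0.0390), from 108.5 to 127.6 CPM across DMSO libraries to 131.8 to 149.6 in BRM014. SRCAP rose by 0.20 (SE 0.0565), but its reads are shared: 73.1% of its exonic bases also belong to a second annotated gene on the same strand, which held 43.2% to 57.9% of the summed counts in GM12878. Summed with it, SRCAP rose by 0.10 (SE 0.0308, adjusted p = 0.00472). Of the other subunits of the INO80 complex, 4 of 13 rose and 5 fell, beside 27.8% and 28.7% of all genes, among them ACTR5 at 0.70, INO80E at 0.35, NFRKB at 0.38 and ACTR8 at -0.40. Against the same background, 8 of the 15 other SRCAP and TIP60 subunits rose and 2 fell, with MRGBP at 0.52, VPS72 at 0.39 and YEATS4 at 0.41.

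Of the 8 further SNF2-related ATPases 4 rose and 0 fell by edgeR, beside 27.8% and 28.7% of all genes, and 5 had an unadjusted p under 0.05, beside 60.8% of all genes. SMARCAL1, an annealing helicase that restarts stalled forks, had 42.5 and 39.9 CPM with DMSO and vehicle and 63.0 and 64.8 with BRM014. In the IFNg arm it had 46.0 and 37.0 against 58.8 and 59.8 CPM, and in the Dex arm 37.8 and 37.9 against 60.5 and 57.8. SMARCAL1 rose by 0.60 over the arms (SE 0.0426, adjusted p = 2.14e-13; 0.65 without DMSO plus IFNg replicate 1), with every BRM014 library above every DMSO library. HLTF, a fork-reversal translocase and ubiquitin ligase, had 56.9 and 57.6 CPM against 86.1 and 79.4 with vehicle, and rose by 0.54 (SE 0.0369, adjusted p = 1.01e-13), or 0.56 without that library. SHPRH, the second such ligase, rose by 0.32 (SE 0.0523), from 24.2 and 29.7 CPM to 35.3 and 33.7 with vehicle. HELLS, which works with CDCA7 in maintaining DNA methylation, rose by 0.19 (SE 0.0432), and its partners CDCA7 (0.27) and CDCA7L (0.23) rose with it while ZBTB24 fell (-0.23). Of 7 remaining SNF2-related ATPases, 5 rose and 0 fell against that background of 27.8% and 28.7%, with ERCC6L2 at 0.38 and RAD54B at 0.40. ATRX (0.15), SMARCAD1 (0.04), ERCC6 (0.03) and BTAF1 (-0.15) did not pass. For ATRX the interval of 2 SE ran from 0.02 to 0.29 and for BTAF1 from -0.33 to 0.02.

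**Figure D3:**
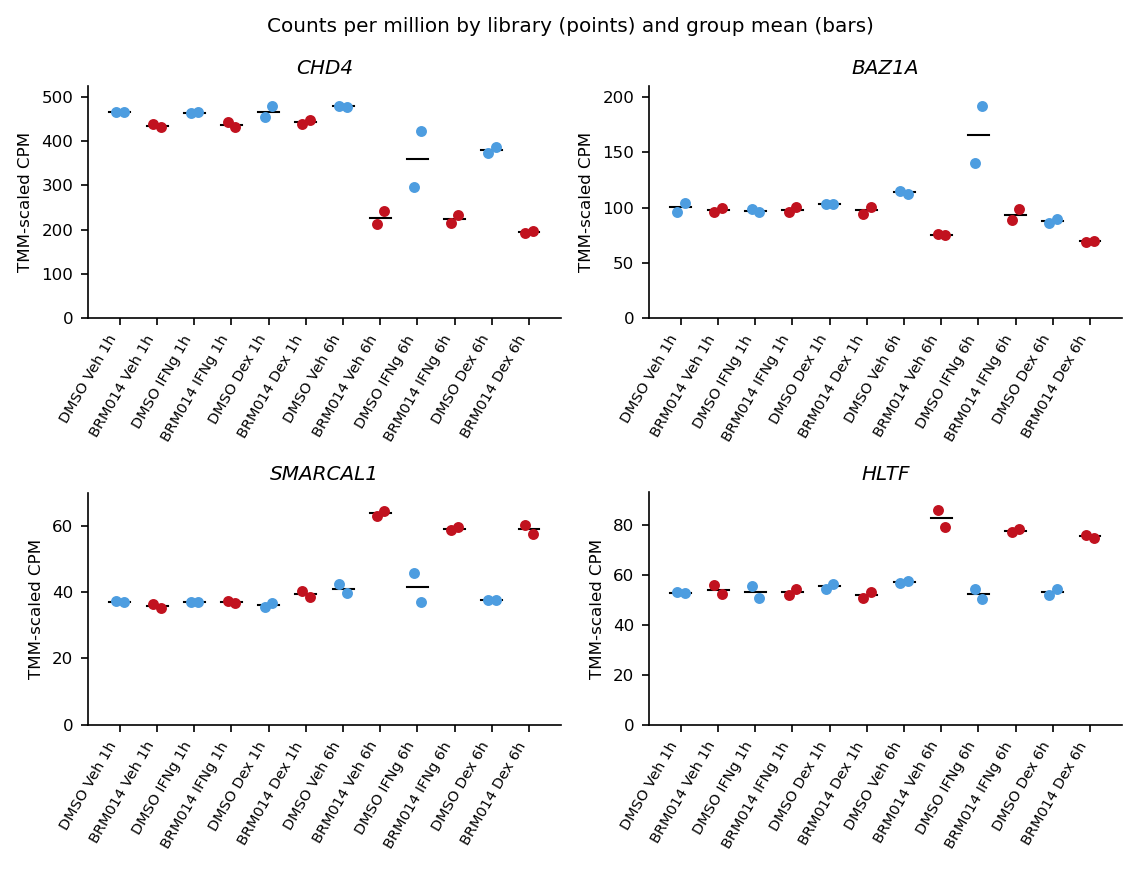
TMM-scaled CPM of CHD4, BAZ1A, SMARCAL1 and HLTF in each of the 24 pretreatment libraries (points: blue DMSO, red BRM014) with the group mean as a bar. At 6 h with vehicle, CHD4 lies at 480.4 and 476.3 CPM in DMSO and 212.8 and 241.5 in BRM014, and at 1 h at 465.9 and 466.0 against 437.5 and 431.6.

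Upstream sequence is shown for HLTF and SMARCAL1, the members that rose most, as the bases before the start of the gene in the sense direction. HLTF lies on chromosome 3 at 149030127 to 149086554 (minus strand) and SMARCAL1 on chromosome 2 at 216412383 to 216483053 (plus strand), both in hg38 with GENCODE 44. The sequences are RefSeq's, from GRCh38.p14, 5′ to 3′; capitals mark a CCAAT box on the other strand, written ATTGG.
HLTF, chr3:149086555-149086783, minus strand: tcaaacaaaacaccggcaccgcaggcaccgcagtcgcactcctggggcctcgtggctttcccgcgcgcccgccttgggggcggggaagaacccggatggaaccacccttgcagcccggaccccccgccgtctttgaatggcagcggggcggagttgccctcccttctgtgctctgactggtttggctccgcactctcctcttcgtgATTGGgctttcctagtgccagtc
SMARCAL1, chr2:216412234-216412382, plus strand: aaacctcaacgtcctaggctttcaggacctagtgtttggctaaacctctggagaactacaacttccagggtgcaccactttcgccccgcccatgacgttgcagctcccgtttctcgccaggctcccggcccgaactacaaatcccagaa
In windows of 250 bases before to 50 after a start, both strands read, CCAAT was found in 34.6% of 35116 promoters and in 6 of the 29 member promoters with an entry, CCGGAA in 17.2% and 6 of 29, and TTCNNNGAA in 7.66% and 0 of 29. Of the sequences shown, HLTF held 1 CCAAT and SMARCAL1 none of the 3 motifs. A TTCNNNGAA can contain a CCGGAA. BAZ1A, BPTF, ATRX, CHD6 and CHD7 had no entry.

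HLTF shares 27.4% of its exonic bases with GYG1 on the opposite strand. The libraries were stranded per the labels, but no source states the strand setting of the counting. GYG1 had a log2 fold change of 0.03 at 6 h (SE 0.0503, adjusted p = 0.632) and of -0.22 in HepG2 (adjusted p = 0.147). BAZ2A shares 5.47% of its exonic bases with RBMS2 on the opposite strand, which had -0.38 at 6 h and 0.43 in HepG2.

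Arm by arm, edgeR called 6 members higher and 4 lower in the vehicle arm (18.4% and 20.1% of all genes), 11 and 4 in the IFNg arm (15% and 18.7%), and 8 and 6 in the Dex arm (17.1% and 20.6%). These 3 arms share no library. CHD2, HLTF, MTA1, SHPRH and SMARCAL1 were called higher in each, 5 of 32, against 8.81% of all genes, and BAZ1A and CHD4 lower in each, 2 of 32, against 12.4%. Membership of the lists was not fully stable. MTA1 lost its call in 7 of 9 other settings in the vehicle arm and in 7 of 9 in the IFNg arm, and CHD2 in 4 and 5 of 9. SHPRH lost its call in 1 setting of each arm. Of the lower list, BAZ1A lost its call in 2 settings in the Dex arm and CHD4 in 1 in the IFNg arm. HLTF and SMARCAL1 kept theirs in all 9 settings of each arm. The sign was the same in all 3 arms for 26 of 32 members (81.2%) and for 68.2% of all genes. Single libraries moved these counts. The vehicle arm called 2 higher without DMSO plus vehicle replicate 1 and 3 without BRM014 plus vehicle replicate 2. The IFNg arm called 5 higher without DMSO plus IFNg replicate 2, 6 without BRM014 plus IFNg replicate 1 and 7 without replicate 2, and the Dex arm 3 lower without BRM014 plus Dex replicate 2. Without the library that stood apart, the IFNg arm called 8 higher and 6 lower, and the mean of arms 11 and 7. CHD9 (0.26), HELLS (0.22) and INO80 (-0.13) were among the IFNg arm calls lost with it.

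Values of other genes moved alongside. The BAF ATPases themselves changed in RNA over the mean of the arms, SMARCA4 by 0.29 and SMARCA2 by -0.58. Of 18 S phase genes, 12 rose and 2 fell at 6 h (median 0.24), with a summed level of 2040 to 2560 CPM in the DMSO libraries and 2280 to 2610 in BRM014. Of 8 B cell markers 5 fell, and their sum ran from 14000 to 16000 CPM in DMSO and 13200 to 15300 in BRM014. The part of either in the members' changes was not tested. Of the 50 partner genes tested beside the BAF ATPases, 22 rose and 11 fell, where 27.8% of all genes rose and 28.7% fell.

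Whether a stimulus altered the BRM014 effect was tested as an interaction at 6 h. edgeR called 0 of 32 members for Dex (1.04% of genes higher, 1.72% lower) and 0 for IFNg (0.0461% and 0.151%). At an unadjusted p under 0.05 there were 1 and 2 members, beside 11.6% and 8.03% of all genes, and DESeq2 called 0 in both. Among the partner genes, edgeR called the Dex interaction for SMARCA2 (-0.46, adjusted p = 1.56e-05) and for the NuRD subunit GATAD2B (0.40, adjusted p = 0.00963). It was also called for the B cell markers CD22 (0.49), PAX5 (0.35) and MS4A1 (0.34) and for the S phase gene E2F1 (-0.39). The IFNg interaction was called by edgeR for CD22 (0.36, adjusted p = 0.0467). For IFNg, single libraries decided whether members were called. BAZ1A had an interaction of -0.24 with all libraries, and of -0.45 (adjusted p = 0.00787) without DMSO plus IFNg replicate 1, and of 0.01 without replicate 2. CHD4 had 0.39 with all libraries, 0.15 without replicate 1 and 0.68 (adjusted p = 5.42e-06) without replicate 2.

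BAZ1A rose with IFNg. In the panel, BAZ1A had 101.2 to 113.7 CPM in the 4 DMSO and PBS libraries and 194.2 and 201.0 with IFNg, a rise of 0.90 log2 (SE 0.0436, adjusted p = 1.56e-17), the largest called change of any member in the stimulus tests run here. edgeR called 4 of 32 members higher and 2 lower (7.11% and 4.75% of all genes). BAZ2A, the TIP5 subunit of the nucleolar NoRC complex, rose by 0.28, CHD8 by 0.17 and BTAF1 by 0.16, and CHD4 fell by 0.12 and ERCC6 by 0.24. The 2 falls were lost without IFNg replicate 1 or 2, and 1 was lost without DMSO replicate 1. In the pretreatment experiment, DMSO cells with IFNg for 6 h had BAZ1A at 140.1 and 192.0 CPM against 115.0 and 112.5 with vehicle (0.55, edgeR adjusted p = 0.00058), with 0.76 without replicate 1 and 0.31 without replicate 2. There 1 of 32 members rose and 1 fell (3.47% and 3.15% of all genes). The fall was CHD4 (-0.41, adjusted p = 0.0419). It was -0.175 (adjusted p = 0.115) without DMSO plus IFNg replicate 1, and the call was also lost without vehicle replicate 1 (adjusted p = 0.167) or 2 (adjusted p = 0.158). With BRM014 plus IFNg, BAZ1A had 88.7 and 98.5 CPM. At 1 h 0 members were called by edgeR or DESeq2 for IFNg (0.435% and 0.079% of all genes) or Dex (0.362% and 0.244%). None had an unadjusted p under 0.05, beside 3.57% of all genes for IFNg and 4.08% for Dex.

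**Figure D4:**
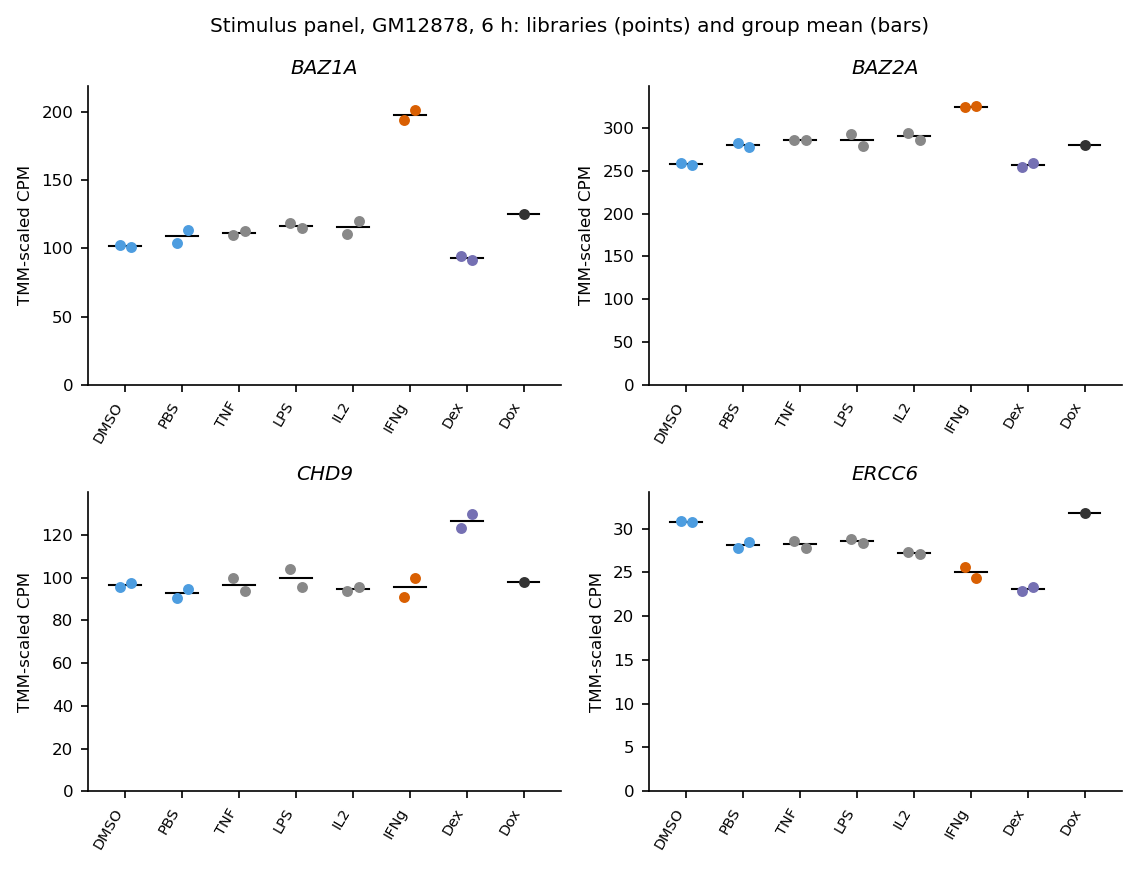
TMM-scaled CPM of BAZ1A, BAZ2A, CHD9 and ERCC6 in each library (points) of the GM12878 panel at 6 h with group means (bars). BAZ1A stands at 194.2 and 201.0 CPM with IFNg, and CHD9 at 123.3 and 130.0 with Dex, against 101.2 to 113.7 and 90.6 to 97.5 in the vehicles.

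With Dex the called changes were smaller than that of BAZ1A with IFNg. In the panel, edgeR called 5 higher and 4 lower (13% and 12.7% of all genes). CHD9 rose by 0.42 (SE 0.0473, adjusted p = 9.76e-09), from 90.6 to 97.5 CPM in the vehicles to 123.3 and 130.0. CHD7 (0.19), MBD2 (0.14), BPTF (0.13) and SRCAP (0.12) also rose, but SRCAP was at 0.02 when summed with the gene that shares its exons (adjusted p = 0.824). ERCC6 fell by 0.35, CHD4 by 0.24, CHD3 by 0.22 and BAZ1A by 0.19. The upward count was 1 without Dex replicate 2. In the pretreatment DMSO arm, edgeR called 1 member higher and 4 lower with Dex at 6 h (8.06% and 7.53% of all genes). MBD2 (0.16) rose, and BAZ1A (-0.37), ERCC6 (-0.37), CHD3 (-0.30) and BAZ2A (-0.20) fell. CHD9 was not called there, at a mean of 98.2 CPM with vehicle and 121.8 with Dex. Without Dex replicate 1 the counts were 0 and 2, and the downward count was 2 without vehicle replicate 2. The ERCC6 call was lost without Dex replicate 2 (adjusted p = 0.15). Panel and pretreatment experiments used separate libraries.

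The other stimuli called no member. With edgeR, IL2 called 0 (0.197% of genes higher, 0.00634% lower), TNF 0 (0.019% and 0%) and LPS 0 (0% and 0%). DESeq2 called 0 for each. At an unadjusted p under 0.05 there were 2, 3 and 4 members, beside 5.72%, 5.02% and 4.92% of all genes. Among vehicle cells, 1 member was higher at 6 h than at 1 h, BAZ1B by 0.23 (adjusted p = 0.0137), and 0 were lower (1.12% and 0.31% of all genes). The BAZ1B call was lost without any 1 of 3 libraries, both DMSO plus vehicle libraries at 1 h and replicate 1 at 6 h. The single Dox library got no test. Of 32 members, 9 lay above, 15 below and 8 within the range of the 4 vehicle libraries, against 28% and 28.3% of all genes above and below. SRCAP was at 105.4 CPM against 133.0 to 142.0 and CHD7 at 48.6 against 61.7 to 64.1. No member passed 1.5-fold, which 1.46% of genes did upward and 1.56% downward.

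In HepG2, most members that changed after 24 h of BRM014 rose. edgeR called 15 of 33 members higher and 1 lower, against 19.3% and 22.8% of 13349 genes. The members' median was 0.295 log2 and that of all genes -0.0146. BAZ2B, an ISWI partner, had 15.3 and 20.3 CPM with DMSO and 38.0 and 31.7 with BRM014, a rise of 0.99 (SE 0.157). CHD3 had 11.9 and 11.2 against 21.75 and 21.97 (0.93, SE 0.157), and SMARCA1 235.3 and 259.8 against 424.1 and 367.5 (0.68, SE 0.0948). In each of these the groups did not overlap, but with 2 libraries per group the share of all genes without overlap was not counted. BAZ1A, which fell in GM12878, had 69.8 and 70.9 CPM with DMSO and 113.2 and 106.1 with BRM014 (0.65, adjusted p = 4.7e-05). SRCAP rose by 0.70, or by 0.49 with the overlapping gene, SMARCAD1 by 0.50, MTA3 by 0.46 and CHD2 by 0.45. MBD2 (0.45), HLTF (0.42), CHD8 (0.40), BAZ2A (0.38), CHD7 (0.34), MTA2 (0.32) and SMARCA5 (0.27) also rose. CHD6 was the 1 that fell, from 88.2 and 107.0 CPM to 68.9 and 61.2 (-0.57, SE 0.115). CHD4 did not pass, at 296.3 and 311.5 CPM against 334.5 and 292.8 (0.05, interval of 2 SE from -0.13 to 0.24).

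The count of rises was 8 without BRM014 replicate 1, and it ran from 8 to 20 over the 4 libraries left out in turn. Median changes differed with transcript length in this comparison. From the shortest to the longest of 4 equal bins of genes, the median log2 fold change was -0.107, -0.0597, 0.0219 and 0.112. The longest bin held 24 of the 33 members, and in it 29.8% of genes were called higher and 18.2% lower. Within GM12878 at 6 h the 4 medians were 0.0162, 0.0242, 0.00504 and -0.0162 in the same order. The part of transcript length in the members' rises was not tested. In the same comparison 7 of 8 hepatocyte markers fell, their sum from 32800 and 35200 CPM to 15700 and 16800, and 10 of 18 S phase genes fell and 2 rose, although their summed level was 1690 and 1750 CPM in DMSO and 2150 and 2160 in BRM014. Of 12 G2 and M phase genes 7 fell and 0 rose, with a sum of 1740 and 1880 CPM in DMSO and 1420 and 1470 in BRM014. The summed monocyte list went from 2880 and 2920 to 1190 CPM in both BRM014 libraries. The part of these lists in the members' changes was not tested. Of 49 tested partner genes, 11 rose and 6 fell, where 19.3% of all genes rose and 22.8% fell.

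The difference of the BRM014 effect between the lines was tested in a joint fit of 28 libraries, a comparison chosen after seeing the data. edgeR called 13 members with a higher effect in HepG2 at 24 h than in GM12878 at 6 h and 2 with a lower one, against 13.9% and 19.1% of 16807 genes. Among the called members the difference was largest for BAZ1A (1.19, SE 0.113), BAZ2B (0.94), CHD4 (0.90) and CHD3 (0.87). SMARCAL1 (-0.37) and HELLS (-0.31) were lower. The upward count was 5 without HepG2 BRM014 replicate 1, and BAZ1A, CHD4, CHD3, MTA2 and MTA3 were the ones called in each of the 5 fits that left 1 library out. The downward count was 4 without HepG2 DMSO replicate 1, 0 without HepG2 DMSO replicate 2, and 1 without DMSO plus IFNg 6 h replicate 1 or either HepG2 BRM014 library. Line and exposure time cannot be told apart.

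**Figure D5:**
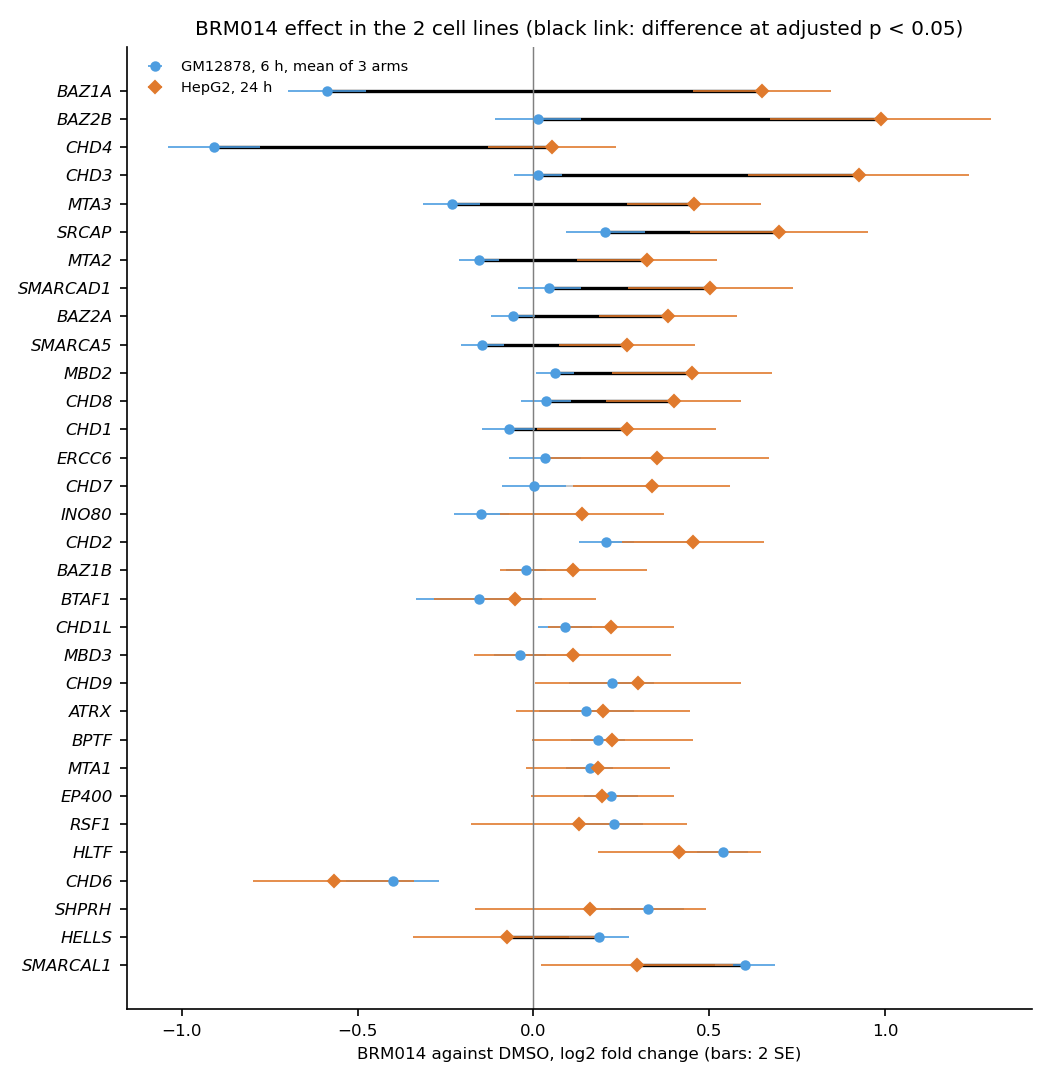
BRM014 against DMSO, log2 fold change with bars of 2 SE, in GM12878 at 6 h (blue, mean of 3 arms) and HepG2 at 24 h (orange), for the 32 members tested in both lines. Black links mark a difference at an adjusted p under 0.05. BAZ1A runs from -0.59 to 0.65 and CHD4 from -0.91 to 0.05, while CHD6 falls in both lines, by 0.40 and 0.57.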

How the data were processed

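Polyadenylated RNA of 43 libraries was sequenced as stranded paired-end libraries, per the labels' protocols. STAR, RSEM and the build hg38 are listed in the submitters' processing notes. The authors deposited, per library and gene, an RSEM expected count and TPM, per the file headers. The strand setting of the counting and the annotation release are not given in the sources used here.

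Expected counts (2.48% to 4.74% of values not whole) were rounded, and 746 rows without an Ensembl gene identifier were left out. edgeR 4.0.16 in R 4.3.3 (limma 3.58.1) fitted quasi-likelihood models with TMM scaling, filterByExpr and robust estimation, with 1 fit per experiment over all its groups. Genes tested numbered 15183 (pretreatment), 15775 (panel), 13349 (HepG2) and 15712 (between lines). Adjusted p is Benjamini-Hochberg over all genes tested, called under 0.05. The standard error (SE) is the log2 fold change divided by the square root of F. CPM compares 1 gene between groups, and the deposited TPM compares genes. Where the libraries of compared groups are said not to overlap, the share of all genes without overlap was not counted. Exon overlaps used GENCODE 44. The scripts were tested on simulated data.

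Alternatives were DESeq2 1.42.0 (test and size factors), no filter on low counts, only the compared groups, 1 vehicle as control, a replicate block and each library left out. For the line difference they were only 5 fits, each without 1 HepG2 library or without DMSO plus IFNg 6 h replicate 1. The main tests did not pair libraries by replicate number. Correlations of same-numbered deviations between groups ran from -0.352 to 0.413 in the pretreatment experiment (median 0.0191). In the panel they ran from -0.128 to 0.386, and the HepG2 value was -0.355. These ranges cannot show whether some groups were paired. Text names all members and, per partner list, up to 4 called genes with the smallest adjusted p. The members and lists were chosen with earlier results of these data known.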

Additional observations from a re-analysis of the deposited data

Results flagged for a closer look

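The BRM014 effect differed between 6 h and 1 h in GM12878, by edgeR's quasi-likelihood test of the difference over the mean of 3 arms, for 15 members. The difference, 6 h minus 1 h in log2, was negative for CHD4 (-0.821), BAZ1A (-0.553), CHD6 (-0.349), MTA3 (-0.314), INO80 (-0.144) and MTA2 (-0.125). It was positive for SMARCAL1 (0.579), HLTF (0.558), SHPRH (0.316), EP400 (0.303), SRCAP (0.242), BPTF (0.224), HELLS (0.17), RSF1 (0.159) and MTA1 (0.118). Of 28 other settings, MTA1 lost the call in 22, RSF1 in 16, HELLS in 13, INO80 in 12 and SRCAP in 5, and the other 10 members kept it in all 28. DESeq2 called 6 members higher and 5 lower.

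The effect also differed between HepG2 at 24 h and GM12878 at 6 h, by the same test in the joint fit, for 15 members. The difference, HepG2 minus GM12878 in log2, was positive for BAZ1A (1.19), BAZ2B (0.936), CHD4 (0.904), CHD3 (0.872), MTA3 (0.634), SRCAP (0.439), MTA2 (0.421), SMARCAD1 (0.42), BAZ2A (0.376), SMARCA5 (0.36), MBD2 (0.358), CHD8 (0.311) and CHD1 (0.309). It was negative for SMARCAL1 (-0.372) and HELLS (-0.306).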

How the results depend on the processing

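Of 1616 recomputed values of single genes, 1384 kept their direction and side of the threshold, 227 kept the direction and lost the call, 3 gained a call and 2 reversed. Of 558 recomputed counts of called members, 508 stayed within 1.5 times. These include counts that were 0 and stayed at 0. The reversals were BAZ1A in the IFNg interaction (0.0112 without DMSO plus IFNg 6 h replicate 2, -0.447 without replicate 1) and CHD1 in the line difference (-0.0914 without HepG2 BRM014 replicate 1, 0.464 without replicate 2). The causes were not tested.

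When a fit held no groups beyond those compared, the mean of arms at 1 h called 1 member lower, the IFNg arm at 6 h 2 lower, IFNg in DMSO cells 0 higher and 0 lower, vehicle 6 h against 1 h 0 higher, and panel IFNg 1 lower. DESeq2 called 3 higher in the vehicle arm at 6 h, 0 lower in the vehicle arm at 1 h, 2 higher for Dex in DMSO cells, 3 higher for panel Dex and 1 lower for panel IFNg. Panel Dex called 3 higher against PBS alone, panel IFNg 1 lower against DMSO or PBS alone, and IL2 1 higher against DMSO alone. Without the filter, the IFNg interaction called 1 higher (SRCAP, 0.35). With the filter and summed with the gene that shares its exons, SRCAP had an interaction of 0.07 (SE 0.0755). Summing genes that share exons left 0 lower for IFNg in DMSO cells.

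Leaving out 1 library gave counts of 5 to 11 higher for 6 h minus 1 h. For the vehicle arm at 6 h they were 2 to 5 higher, for the IFNg arm 5 to 8 higher and for the Dex arm 3 to 6 lower. For the vehicle arm at 1 h they were 0 to 0 lower and for HepG2 8 to 20 higher. For Dex in DMSO cells they were 0 to 1 higher and 2 to 3 lower, and for IFNg in DMSO cells 0 to 1 lower. The IFNg interaction had 0 to 1 higher and 0 to 1 lower, and vehicle 6 h against 1 h 0 to 1 higher. Panel Dex had 1 to 6 higher, panel IFNg 0 to 2 lower, and the line difference 5 to 18 higher and 0 to 4 lower. A lone library in an arm was assumed to vary like the other groups.

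Adding the replicate block kept every count within 1.5 times, with 12 higher and 7 lower over the arms at 6 h and 12 higher and 1 lower in HepG2. Crossing the HepG2 replicate numbers, chosen after seeing the data, gave 23 higher and 1 lower. HepG2 BRM014 replicate 2, with 3.06 M counts, limits that comparison.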
